A study of Mus musculus with 6 samples.

Results

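The baseline transcriptome of a vector-transfected clone of MIN6-4N cells was described from 3 of the 6 arrays of a series on the non-coding RNA gene Meg3. The 3 arrays were chosen by their labels as cultures 1, 2 and 3 of 1 clone, Vec-3, and the Meg3-transfected arrays were not used. MIN6 is a mouse insulinoma line, derived from beta cell tumours of transgenic mice that express the SV40 large T antigen under an insulin promoter. The labels do not say how the 4N subline was made. Per the labels' protocols, the cells received a vector plasmid by nucleofection, went through 5 weeks of G418 at 750 µg/ml, and were picked as a clone with cloning cylinders. The plasmid is not named there. The clone was grown in low-glucose medium with 15% serum and 500 µg/ml G418, and 6 µg of total RNA per culture was labelled with biotin. The labels' descriptions also mention sorted cells, and no protocol describes a sort. All 3 cultures come from 1 clone, so their spread is that between cultures of a clone and says nothing of other MIN6-4N clones. No groups were compared and no test was run.

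Beta cells make proinsulin, cut it with prohormone convertases inside secretory granules, and release insulin when glucose metabolism closes a potassium channel and opens calcium channels. Their identity is kept by a network of transcription factors that includes PDX1, NKX6-1, NEUROD1 and MAFA. Insulinoma lines keep much of this machinery but divide, and they can carry genes of other endocrine cells.

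A level is the mean log2 value (RMA) of all probe sets that the array annotation gives to a gene, which gave 20416 genes with a median of 8 probe sets each. A percentile is the share of these genes at or below a gene's mean level. Array signal depends on the binding strength of each probe as well as on RNA, so a percentile ranks signal, not molecules, and a small gap in rank between genes carries no meaning. As a reference for signal without the matching RNA, the 982 olfactory receptor genes (Olfr) were used, and whether each is silent in this line was not tested. Their median level was 4.20, and the 95th percentile, 5.81, was taken as the cut. On single arrays that percentile was 5.75, 6.11 and 5.75 in cultures 1, 2 and 3. Values of single cultures are set against 5.81 unless the cut of their own array is named. Over all genes, 13741 of 20416 (67.3%) had a mean level over this cut. The 99th percentile of the same genes was passed by 47.6% of all genes. A stricter cut, 7.29, was the 95th percentile of 87 keratin-associated protein and beta-defensin genes, and 39.3% of all genes passed it. Each count of a list over a cut is to be read against these shares of all genes. Olfactory receptor genes had a median of 1 probe set, and 50 of them lay over their own cut, the brightest being Olfr1259 at 10.56 ± 0.44 (SD, n = 3), chosen after its value was seen.

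**Figure D1:**
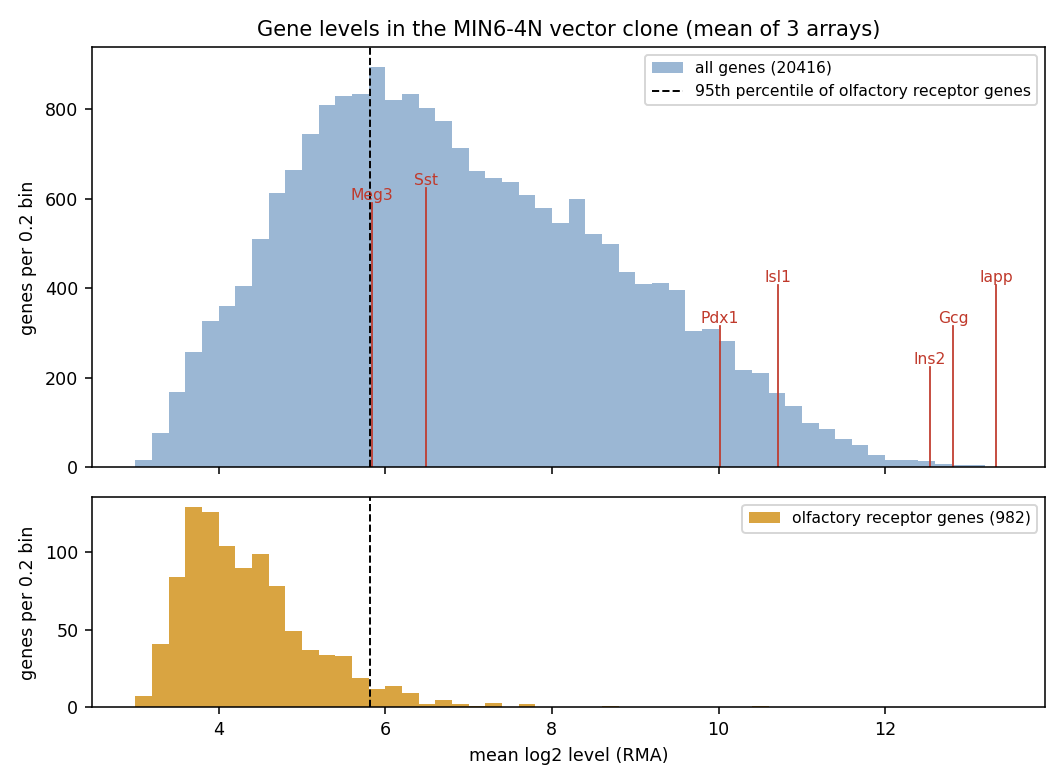
Histograms of the mean log2 level of all 20416 genes (top) and of the 982 olfactory receptor genes (bottom), with genes per bin of 0.2 on the vertical axis and the cut of 5.81 as a dashed line. Red lines mark single genes: Iapp, Gcg and Ins2 sit in the far right tail, and Meg3 sits on the cut.

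Culture 2 stood apart from the other cultures. Across genes, cultures 1 and 3 correlated at 0.997 (Pearson), whereas culture 2 correlated with them at 0.970 and 0.974 (n = 20416 genes of shared arrays, a description). The median SD of a gene over the 3 cultures was 0.19, and over cultures 1 and 3 alone it was 0.07. Values are therefore given per culture.

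The 6 genes given as markers of the line were all bright or moderately bright in every culture. Iapp, which encodes amylin, a peptide secreted together with insulin, had the highest level of all genes (rank 1), with log2 values of 13.05, 13.81 and 13.14 in cultures 1, 2 and 3. Ins2, a mouse insulin gene, stood at 12.49, 12.64 and 12.48 (mean 12.54 ± 0.09, SD, n = 3) and ranked 21. Gcg, which encodes proglucagon, the hormone precursor of alpha cells and of gut L cells, stood at 12.72, 12.95 and 12.78 (mean 12.82 ± 0.12, SD, n = 3) and ranked 11. The glucagon precursor gene was thus among the brightest genes of a line labelled as beta cells, in each of the 3 cultures. All 6 Gcg probe sets were bright, from 11.39 to 13.45, so the level did not rest on 1 probe set. The 5 Ins2 probe sets ran from 10.30 to 13.67 and the 3 Iapp probe sets from 13.04 to 13.51. G6pc2, an islet glucose-6-phosphatase that opposes glucokinase, had values of 12.58, 12.88 and 12.63 and ranked 14. Pdx1 and Isl1, islet homeodomain factors, had percentiles of 93.2 and 97.1. The 6 markers were thus all high in signal. Of them, Gcg is a hormone gene of alpha cells and Isl1 is shared by all islet endocrine cells. Other beta cell genes given below ranged widely in percentile. Slc30a8 stood at 99.9, Slc2a2 at 58.2, Mafa at 57.6 and Ucn3 at 24.3, below the cut, all picked here with their values known.

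Upstream sequences of Iapp, Gcg and Cck are shown because islet factors such as NEUROD1, described further on, bind short motifs in hormone promoters. No window was available for Ins2. Those of the bright peptide genes Npy and Pdyn, which lack the motif marked here, are not printed. Each is the 300 bases from 250 before to 50 after the gene's start, from RefSeq, build GRCm38.p6, and capitals mark CATCTG or its reverse complement CAGATG, an E-box core of the type that NEUROD1 dimers bind.
Iapp: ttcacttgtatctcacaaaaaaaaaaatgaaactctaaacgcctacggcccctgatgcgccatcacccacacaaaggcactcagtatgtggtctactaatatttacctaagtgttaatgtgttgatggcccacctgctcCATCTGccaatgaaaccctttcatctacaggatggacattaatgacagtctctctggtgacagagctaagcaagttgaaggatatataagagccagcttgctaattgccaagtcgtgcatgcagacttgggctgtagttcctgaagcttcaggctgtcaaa
Gcg: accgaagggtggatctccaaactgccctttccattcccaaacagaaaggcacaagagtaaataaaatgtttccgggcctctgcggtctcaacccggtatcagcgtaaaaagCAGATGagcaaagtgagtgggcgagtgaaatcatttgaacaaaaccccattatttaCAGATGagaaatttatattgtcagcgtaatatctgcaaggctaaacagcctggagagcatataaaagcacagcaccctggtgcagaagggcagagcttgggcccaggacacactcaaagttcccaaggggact
Cck: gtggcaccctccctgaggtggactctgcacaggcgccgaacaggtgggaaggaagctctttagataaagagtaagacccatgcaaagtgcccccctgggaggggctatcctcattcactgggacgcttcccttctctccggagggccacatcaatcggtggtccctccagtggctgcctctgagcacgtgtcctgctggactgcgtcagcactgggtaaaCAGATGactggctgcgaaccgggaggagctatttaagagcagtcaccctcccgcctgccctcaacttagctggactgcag
The Iapp window is chr6:142298175-142298474 on the plus strand, the Gcg window chr2:62483604-62483903 on the minus strand, and the Cck window chr9:121495645-121495944 on the minus strand. CATCTG on either strand occurred 1 time in the Iapp window, 2 times in Gcg and 1 time in Cck. Of 32851 promoter windows of this length, 17.2% held it at least 1 time. The windows for Npy, Pdx1 and Chga held 0, as did both for Pdyn, and the 2 windows for G6pc2 held 0 and 2. These are letter matches in a window, chosen with the levels known, and say nothing of binding.

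The other islet hormones were dim beside these. All 7 measured islet hormone genes passed the olfactory cut and 4 the stricter one, against 67.3% and 39.3% of all genes. Sst, the somatostatin gene of delta cells, read 6.49, 6.49 and 6.47 with a percentile of 46.4. Ppy, pancreatic polypeptide, read 7.16, 6.86 and 7.15, and Pyy, peptide YY, read 6.07, 6.29 and 5.73, below the cut in culture 3. Ghrl, the ghrelin gene of epsilon cells, read 7.40, 7.43 and 7.25, a percentile of 61.8. Its 4 probe sets spread from 5.31 to 8.59. Proglucagon was thus bright while the hormones of the remaining islet cell types stayed in the middle of the range.

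Among 24 gut and neural peptide genes, a small set was bright and most were not. Over the olfactory cut lay 9, against 67.3% of all genes, and 3 had a percentile of 90 or more. Cck, cholecystokinin, a gut and brain peptide, read 12.21, 10.96 and 12.09 (percentile 99.5). Pdyn, the prodynorphin gene of the opioid family, read 11.78, 10.74 and 11.68. Npy, neuropeptide Y, found in the fetal endocrine pancreas and sympathetic nerves, read 10.81, 10.47 and 10.69 (96.8). For Cck and Pdyn culture 2 was lower than both others, and all 3 values were over the stricter cut. Sct and Cartpt, secretin and the CART peptide, were intermediate at 7.68 ± 0.22 and 7.40 ± 0.13 (SD, n = 3). Ucn3, urocortin 3, which marks mature beta cells, read 5.70, 5.21 and 5.30, below the cut in every culture. Ucn3 lies outside the naming rule and was picked with its value known. Crh, Nts, Tac1 and Gal had the lowest levels of the list, from 4.46 to 4.73.

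**Figure D2:**
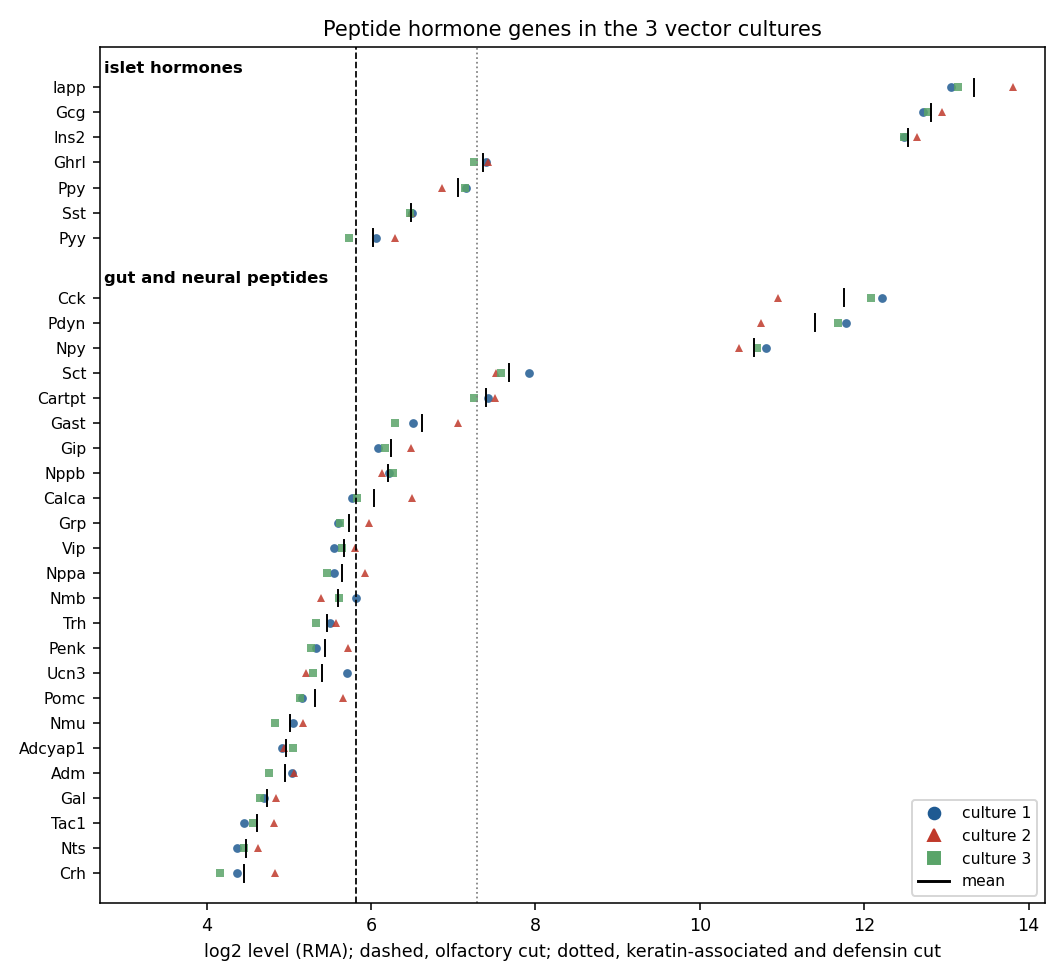
Log2 level of 7 islet hormone and 24 gut and neural peptide genes in cultures 1 (circles), 2 (triangles) and 3 (squares), with the mean as a bar. The dashed line is the olfactory cut (5.81) and the dotted line the stricter cut (7.29); Iapp, Gcg, Ins2, Cck, Pdyn and Npy lie far to the right of both.

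Islet transcription factors were nearly all over the olfactory cut, at very different signal. Of 27 measured, 26 were over that cut, 23 over the 99th percentile of olfactory genes and 20 over the stricter cut. The shares of all genes were 67.3%, 47.6% and 39.3%. The list had a median percentile of 70.3. The brightest was Etv1, an ETS factor, at 11.55, 11.97 and 11.69. Isl1, the LIM homeodomain factor shared by all islet endocrine cells, read 10.96, 10.19 and 11.01. The endocrine zinc finger gene Insm1 read 10.50, 10.91 and 10.66, and the zinc finger gene St18 read 10.44, 10.37 and 10.53. All 4 lay over both cuts in each culture.
Pax6, a paired homeodomain factor, read 10.38, 10.17 and 10.44, and Neurod1, the basic helix-loop-helix activator of insulin, read 10.25, 10.08 and 10.37. Pdx1 read 10.24, 9.83 and 9.97, although its 5 probe sets ran from 6.65 to 12.95. Rfx6, a winged-helix factor of endocrine cells, picked with its value known, read 9.85, 9.98 and 9.91.

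Other core factors had middling mean levels. Nkx6-1 and Nkx2-2, homeodomain repressors that hold beta cell fate, stood at 8.61 ± 0.28 and 8.59 ± 0.08 (SD, n = 3), percentiles of 79.8 and 79.4. Probe sets of Nkx6-1 ran from 6.65 to 10.86 and those of Nkx2-2 from 5.86 to 12.26. Mafa, which drives insulin transcription in mature beta cells, read 7.18, 7.09 and 7.02, a percentile of 57.6, from 1 probe set. All 3 Mafa values lay between the cuts. These 3 genes lie outside the naming rule and were chosen after their values were seen. At the bottom, Mnx1 read 6.28 ± 0.25 and Sox4 6.67 ± 0.24. Nr5a2, an acinar and progenitor nuclear receptor, was the only member below the cut, at 5.16 ± 0.17 (SD, n = 3).

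Factors of progenitors and other lineages were mostly under the stricter cut. Of 23 measured, 13 (56.5%) passed the olfactory cut and 2 the stricter one, against 67.3% and 39.3% of all genes. Their median percentile was 34.6. Neurog3, the endocrine progenitor factor, read 5.46, 5.88 and 5.50, with its mean below the cut, and was picked with its value known. Pax4, a progenitor and beta lineage repressor, read 6.51 ± 0.17, and Gata4, a foregut factor, 7.54 ± 0.21 (SD, n = 3). Bhlha15 (MIST1), a secretory cell factor, was the brightest at 8.08 ± 0.09. Sox2, Pou5f1 and Onecut1 were at the bottom, at 4.98, 5.08 and 5.08.

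The alpha cell list did not follow Gcg as a whole. Of 10 measured genes, 5 are also on other lists, 9 passed the olfactory cut and 5 the stricter one. Over all genes, 67.3% passed the olfactory cut and 39.3% the stricter one. Besides Gcg, the brightest were Ttr, transthyretin, at 12.07, 11.65 and 11.99, and Tmem27, now named Cltrn, a collectrin of islet cells, at 11.12, 11.43 and 11.12. Ttr and Tmem27 are known in beta cells as well. Dpp4, the peptidase that inactivates GLP-1, read 10.33, 10.50 and 10.28. The alpha lineage factors measured lay near the cut: Irx1 read 5.83, 5.91 and 6.01, and Pou3f4 read 5.83, 5.72 and 5.70, beside the cut of 5.81. Irx2, of the same Iroquois family as Irx1, was higher at 7.16 ± 0.18 (SD, n = 3). Gcgr, the glucagon receptor, chosen after its value was seen, read 5.77, 5.90 and 5.71, at the cut. Of 8 delta and PP cell genes, 5 of them on other lists too, 6 (75%) passed the olfactory cut and 1 the stricter one. That was Ghsr, the ghrelin receptor of delta cells, at 7.75, 8.21 and 7.94, while the delta cell factor gene Hhex read 5.05, 5.53 and 5.35.

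Granule genes formed the brightest list of all 27 described. All 21 granin and prohormone processing genes passed the olfactory cut and 19 the stricter one, against 67.3% and 39.3% of all genes. A percentile of 90 or more was held by 15, and the median percentile was 98.0. Chga, chromogranin A, which drives granule formation, read 12.96, 12.18 and 12.88. Scg3, a granin that binds chromogranin A, read 12.50, 12.84 and 12.61. Slc30a8, the zinc transporter that loads granules for insulin crystals, read 12.46, 12.44 and 12.54. Culture 2 was the lowest for Chga, the highest for Scg3 and near the others for Slc30a8. Cpe, the carboxypeptidase that trims basic residues, read 12.34, 12.44 and 12.42. The convertases that cut proinsulin and proglucagon were both bright, Pcsk1 at 11.65, 11.77 and 11.68 and Pcsk2 at 11.58, 10.96 and 11.67. As background, PCSK2 yields glucagon from proglucagon and PCSK1 yields GLP-1. Chgb, chromogranin B, read 11.38, 10.98 and 11.40. Pcsk2 and Chgb lie outside the naming rule and were picked with their values known. Ero1lb, now Ero1b, the oxidase for proinsulin disulphides, read 11.79, 12.19 and 11.77. The lowest members were Qpct (6.16 ± 0.14), Vgf (6.55 ± 0.20), Pcsk1n, a PCSK1 inhibitor (7.41 ± 0.05), and Furin, the constitutive-pathway convertase (7.54 ± 0.78; SD, n = 3). Furin read 8.10 and 7.88 in cultures 1 and 3 but 6.64 in culture 2.

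**Figure D3:**
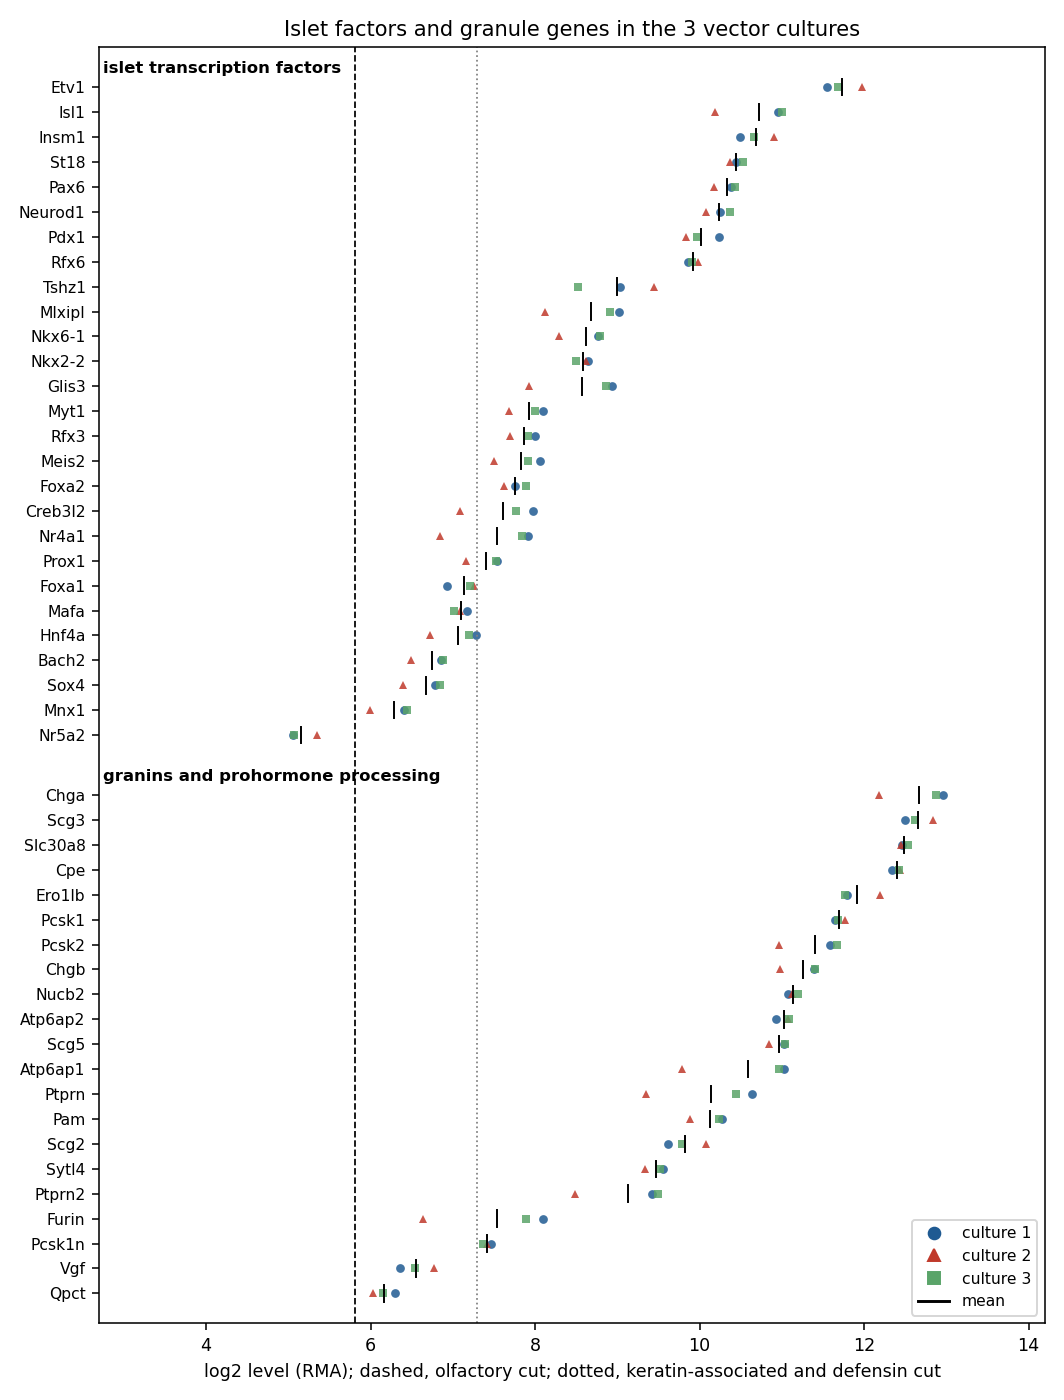
Log2 level of 27 islet transcription factors and 21 granin and processing genes in cultures 1 (circles), 2 (triangles) and 3 (squares), mean as a bar, with the olfactory (dashed, 5.81) and stricter (dotted, 7.29) cuts. Granule genes crowd the right, and culture 2 lies left of the other cultures for genes such as Furin, Chga and Isl1.

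The machinery of granule exocytosis spread more widely. Of 33 measured genes, 30 (90.9%) passed the olfactory cut and 23 the stricter one, against 67.3% and 39.3% of all genes (median percentile 78.8). Snap25, a membrane SNARE, read 11.37, 10.92 and 11.48, and Vamp2, the granule SNARE of beta cells, read 10.22, 9.84 and 10.12. Vamp3, the SNARE of constitutive vesicles, read 11.10, 11.13 and 11.06, and Syt4, a synaptotagmin of maturing beta cells, 10.21, 9.94 and 10.19. All 4 were over both cuts in each culture. Lower were Stx1a, the partner SNARE at the membrane, at 7.25 ± 0.33, and the calcium sensor gene Syt7 at 7.62 ± 0.51 (SD, n = 3), both chosen after their values were seen. Doc2b and Cadps2 lay under the cut at 5.62 and 4.82, whereas the paralogue of the latter, Cadps, a priming factor, read 9.77, 9.95 and 9.77.

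Genes of glucose sensing and excitation held both extremes. Of 33 measured, 31 (93.9%) passed the olfactory cut and 20 the stricter one, against 67.3% and 39.3% of all genes. Their median percentile was 66.3. Beside G6pc2, Atp2a2, the SERCA2 calcium pump of the endoplasmic reticulum, read 12.45, 12.55 and 12.60. Abcc8, the sulphonylurea receptor subunit of the potassium channel, read 10.95, 9.80 and 10.86 (percentile 96.3). Its pore-forming partner Kcnj11, chosen after its value was seen, read 6.91, 6.47 and 6.64 (50.1). Probe sets of Kcnj11 ran from 4.41 to 8.72 and those of Abcc8 from 7.49 to 12.55. Slc2a2, the GLUT2 glucose transporter of rodent beta cells, read 7.17, 7.11 and 7.13 (58.2), between the cuts, with probe sets from 4.39 to 9.52. Slc2a1, the widespread GLUT1, read 8.96, 7.77 and 8.68 (77.9). Both were chosen after their values were seen. The calcium channel gene Cacna1c read 8.96, 8.06 and 8.87, and Cacna1d 6.65, 6.36 and 6.65, likewise chosen. The lowest were the sodium channel gene Scn3a at 4.59 ± 0.09 and Tmem37 at 4.66 ± 0.19 (SD, n = 3).

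Genes usually kept silent in beta cells, called disallowed genes, were split. Of 32 measured, 21 passed the olfactory cut, close to the 67.3% of all genes. The stricter cut was passed by 9, against 39.3% of all genes, and the median percentile was 38.2. Ldha, lactate dehydrogenase A, read 10.39, 9.23 and 10.25 (percentile 92.8). Oat, ornithine aminotransferase, read 10.16, 9.92 and 10.17, and Maf, a bZIP factor, read 9.25, 9.47 and 9.05. The pyruvate and lactate carrier gene Slc16a1, chosen after its value was seen, stood between at 7.46 ± 0.08, a percentile of 63.4. Hk1, a low-Km hexokinase, read 8.71, 7.66 and 8.58. Hk2, another low-Km hexokinase, read 5.45, 5.88 and 5.33. Hk1 was over both cuts in each culture. Hk2 was over the lower one in culture 2 alone, where it was below that array's own cut of 6.11. Rest, the repressor of neuronal genes, read 5.63, 5.91 and 6.19, around the cut, and was chosen likewise. At the bottom lay Zfp36l1 (4.64), Cd302 (4.98), G6pc (4.98), the liver and kidney glucose-6-phosphatase, and Igf1 (5.04).

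Receptor genes of beta cells lay near the background of all genes as a list, with a few bright members. Of 35 measured, 24 (68.6%) passed the olfactory cut and 12 the stricter one, against 67.3% and 39.3% of all genes (median percentile 51.7). P2ry1, a purinergic receptor for ADP, read 10.85, 10.98 and 10.75, with a percentile of 97.6. Glp1r, the GLP-1 receptor, read 11.14, 9.58 and 11.14 (96.7). Culture 2 was the lowest for Glp1r and the highest for P2ry1. Ffar1 and Ffar3, fatty acid receptors, read 8.43 ± 0.53 and 8.68 ± 0.31, and the orphan receptor gene Gpr158 read 9.30 ± 0.19 (SD, n = 3). Gipr, the receptor for the incretin GIP, read 6.60, 6.57 and 6.63 (48.8), and Gpr119, a lipid receptor, 5.12, 5.17 and 5.10 (19.0), below the cut. Both were chosen after their values were seen. Npy1r, a receptor for the bright peptide Npy, had the lowest level of the list at 4.56 ± 0.14 (SD, n = 3), and Cckar, a receptor for cholecystokinin, chosen likewise, read 7.05, 6.78 and 7.21.

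The secretory pathway before the granule was mostly bright. All 37 genes of endoplasmic reticulum folding and the unfolded protein response passed the olfactory cut and 36 the stricter one. The shares of all genes were 67.3% and 39.3%. The list had a median percentile of 95.5. Hsp90b1 (GRP94), a chaperone, read 12.61, 13.05 and 12.69, and Canx, calnexin, 12.34, 12.76 and 12.42. Chaperone and translocon genes such as Sec61g (12.04 ± 0.16) and Ssr3 (11.94 ± 0.28; SD, n = 3) had percentiles of 99.7 and 99.6. Dnajc3, a chaperone induced by the unfolded protein response, read 11.64, 11.81 and 11.76. Hspa5 (BiP), the main chaperone induced by it, read 11.18, 11.12 and 11.09, and was picked with its value known. Among the lowest members were the stress factor genes Atf4, Atf3 and Trib3, with means of 8.30, 7.49 and 6.43 and percentiles of 75.6, 63.8 and 45.6. Ddit3 (CHOP), the stress factor gene, chosen after its value was seen, read 8.73, 7.85 and 8.53.

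Energy metabolism was bright for mitochondria and mixed for glycolysis. The shares of all genes over the olfactory and stricter cuts, for the counts that follow, were 67.3% and 39.3%. All 28 genes of the TCA cycle and mitochondrial shuttles passed the olfactory cut and 25 the stricter one (median percentile 92.2), led by the malate dehydrogenases Mdh2 (11.89, 10.64 and 11.72) and Mdh1 (11.31, 11.38 and 11.33). Of 77 nuclear genes of oxidative phosphorylation subunits, taken by symbol, 74 passed the olfactory cut (median percentile 92.5). Of 69 ribosomal protein genes, 64 did (median percentile 92.7). The mitochondrial transcripts ND1, ND2, COX1 and COX3 ranked 2, 3, 5 and 6 of all genes. For glycolysis, 19 of 23 passed the olfactory cut (median percentile 75.8, and 79.0 without culture 2). Gapdh read 11.85, 11.19 and 11.88 and the phosphoglucose isomerase gene Gpi1 11.39, 9.81 and 11.29. Pcx, pyruvate carboxylase, which refills the cycle in beta cells, had a level of 6.94 ± 0.24 (SD, n = 3), a percentile of 55.0. Pdk4, a brake on pyruvate dehydrogenase, was lowest at 4.26 ± 0.16.

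Most proliferation genes were bright. The shares of all genes over the olfactory and stricter cuts, for the counts that follow, were 67.3% and 39.3%. All 35 genes of mitosis and DNA replication passed the olfactory cut and 33 the stricter one, and 20 had a percentile of 90 or more. Pcna, the replication clamp, read 12.18, 12.30 and 12.24, and Top2a, topoisomerase II alpha, 11.50, 11.83 and 11.55. Mki67, the Ki-67 antigen gene, chosen after its value was seen, read 10.51, 10.48 and 10.67. The lowest members were Cdt1, a replication licensing factor, at 7.58, 6.84 and 7.36, and E2f1, an activator of S-phase genes, at 7.42, 7.07 and 7.38, both under the stricter cut in culture 2. Gmnn, the inhibitor of CDT1, stood at 7.84 ± 0.14 and Mcm5, a subunit of the replicative helicase, at 8.43 ± 0.45 (SD, n = 3). Of 17 cyclins, kinases and inhibitors, 16 passed the olfactory cut and 13 the stricter one. Ccnd2, the main D cyclin of beta cells, read 11.09, 10.42 and 11.18, and Cdk4, its kinase, 10.92, 9.95 and 10.74. Ccnd1 read 5.97, 6.57 and 6.15 and Cdk6 5.61, 5.92 and 5.45, near the cut. The D cyclin and kinase genes were thus split, Ccnd2 and Cdk4 far over both cuts and Ccnd1 and Cdk6 near or under the lower one. Of the inhibitors, Cdkn2c (p18) was the brightest at 10.87, 11.05 and 10.86. Rb1 read 9.86, 10.29 and 10.09.

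Defining markers of non-endocrine pancreatic and supporting cells were mostly under the stricter cut. Of 18 acinar genes, 5 passed the olfactory cut and 0 the stricter one: the lipase cofactor gene Clps was highest at 6.65 ± 0.31 (SD, n = 3), and Cpa1, carboxypeptidase A1, read 6.01, 6.02 and 6.20. Clps was the 1 acinar gene over the cut of its own array in all 3 cultures, which 61.2% of all genes were. Of 15 fibroblast and stellate cell genes, 9 (60%) passed the olfactory cut and 0 the stricter one, and of 13 endothelial genes 4 and 0. Over all genes, 67.3% passed the olfactory cut and 39.3% the stricter one. The fibroblast list was thus not far below all genes on the olfactory cut. Of 16 immune genes 4 and 1 passed; the latter was Cd68, a lysosomal protein of macrophages and other cells, at 9.13, 7.99 and 8.75. The pan-leukocyte gene Ptprc, chosen after its value was seen, read 5.11, 5.40 and 4.93, below the cut. Of 15 hepatocyte genes, 3 passed the olfactory cut and 2 the stricter one, with albumin (Alb) at 5.06 ± 0.20. Of 15 skeletal muscle genes, 8 (53.3%) and 0 passed, and of 7 Schwann cell and glial genes, 3 and 2.

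The duct list lay near the background of all genes, with a few bright members. Of 13 duct genes, 9 (69.2%) passed the olfactory cut and 6 the stricter one, against 67.3% and 39.3% of all genes. Their median percentile was 42.2. Spp1, osteopontin, a secreted phosphoprotein, read 12.43, 12.14 and 12.42 (percentile 99.8). The simple-epithelium keratin genes Krt8 and Krt7 read 10.50, 10.11 and 10.72, and 10.28, 9.76 and 10.36. Epcam, an epithelial adhesion gene, Krt18, the partner keratin of Krt8, and the factor gene Onecut2 were over the stricter cut too, at 9.46, 8.98 and 8.74. Other defining duct markers were low. Krt19 read 4.99, 5.41 and 4.95, the chloride channel gene Cftr 4.07, 4.45 and 4.15, all below the cut, and Sox9, chosen after its value was seen, 6.06, 6.40 and 6.36.

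Of 18 neuronal genes, 16 (88.9%) passed the olfactory cut and 12 the stricter one, against 67.3% and 39.3% of all genes. Their median percentile was 74.8. Neurons and endocrine cells share many genes, and Gad2, which makes the islet autoantigen GAD65, is known in beta cells; it read 9.81, 9.60 and 9.93. The neurofilament gene Nefm stood at 11.95 ± 0.21 (SD, n = 3), and Nefl read 10.69, 10.36 and 10.83. Dcx, doublecortin, a microtubule protein of migrating neurons, read 11.20, 11.32 and 11.18, and the neuronal tubulin gene Tubb3 11.21, 11.06 and 11.37. These 4 genes were over both cuts in each culture. Chat, the acetylcholine-synthesis gene, and Gad1 were low at 5.32 and 5.76, while the vesicular glutamate transporter genes Slc17a6 and Slc17a7 lay between the cuts at 7.21 and 7.03, the former picked with its value known.

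**Figure D4:**
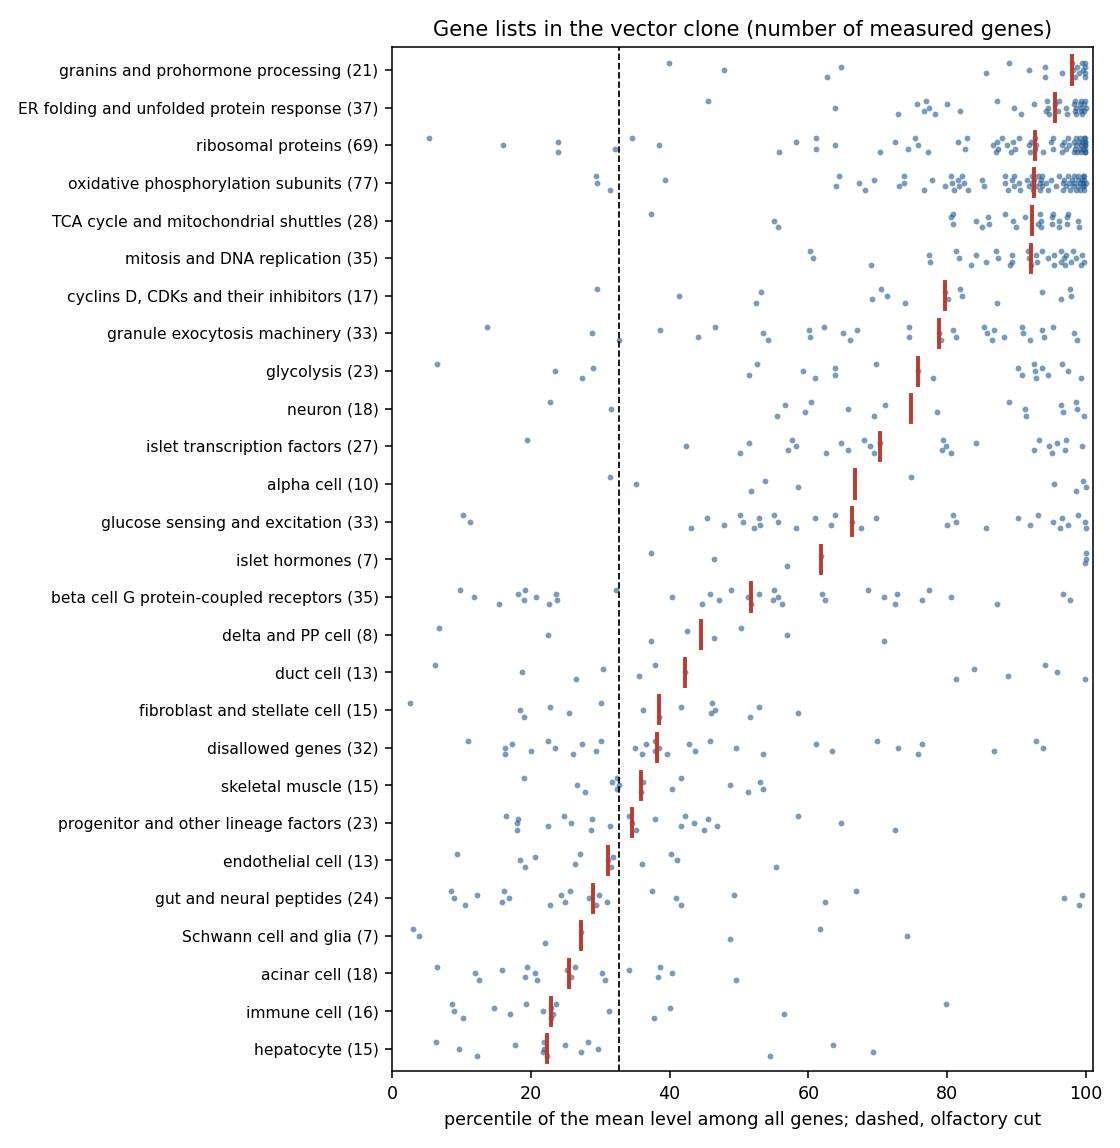
Percentile of the mean level of each measured member (points, shifted slightly up and down for legibility) in 27 gene lists, ordered by their median (red bar), with the olfactory cut at a percentile of 32.7 as a dashed line. Granule, folding, mitochondrial and proliferation lists lie at the right, lists of acinar, immune and hepatocyte genes at the left, and duct and peptide lists have a few members far to the right of their median.

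The 25 brightest genes, with ribosomal protein, predicted and histone genes left out, mixed endocrine and housekeeping genes. Endocrine or granule genes among them were Iapp, Gcg, G6pc2, Chga, Scg3, Ins2 and Slc30a8. Others were Calm2, a calmodulin gene (rank 4), Gng12, a G protein subunit (rank 7), B2m, the MHC class I light chain (rank 10), the myosin light chain gene Myl6 (rank 13), the nuclear RNA Malat1 (rank 15) and Stmn1, a microtubule regulator (rank 25). Meg3, the gene whose plasmid the other clone of the series received, read 5.63, 6.00 and 5.88 in the vector cultures (mean 5.84 ± 0.19, SD, n = 3). That mean is at the olfactory cut, with a percentile of 33.4. The 5 Meg3 probe sets ran from 3.85 to 7.62, on both sides of the cut.

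Spread between cultures came mostly from culture 2. The 3 cultures differed by more than 1 (log2, 2-fold) for 1060 genes, 5.19% of all, whereas cultures 1 and 3 differed by that much for 10 genes (0.049%). Culture 2 was lower than the mean of the others by over 1 for 707 genes (3.46%) and higher for 83 (0.407%). Its departure varied with level. In decile 1 of genes by level, the dimmest, its median was 0.25 above the mean of cultures 1 and 3, in decile 7 it was -0.31, and in decile 10, the brightest, 0.02. Cultures 1 and 3 differed by medians between -0.03 and 0.04 over the same deciles.

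Lists followed this in part. The median of culture 2 minus the mean of cultures 1 and 3 was -0.71 over glycolysis genes, -0.56 over glucose sensing and excitation, -0.46 over TCA cycle and shuttle genes, and -0.41 over exocytosis genes. Each of these 4 was further below 0 than the median of any decile of genes by level. The lists share genes: 9 of 23 glycolysis, 10 of 33 glucose sensing and 6 of 28 TCA and shuttle genes are also on other lists. Their medians are therefore not separate observations. Islet hormones had a median of 0.16, acinar genes 0.26 and olfactory receptor genes 0.23. Culture 2 was the lowest of the 3 for 18 of 23 glycolysis genes and 28 of 33 glucose sensing genes, against 37.6% of all genes. It was the highest for 5 of 7 islet hormones and 811 of 982 olfactory receptor genes, against 52% of all genes.

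**Figure D5:**
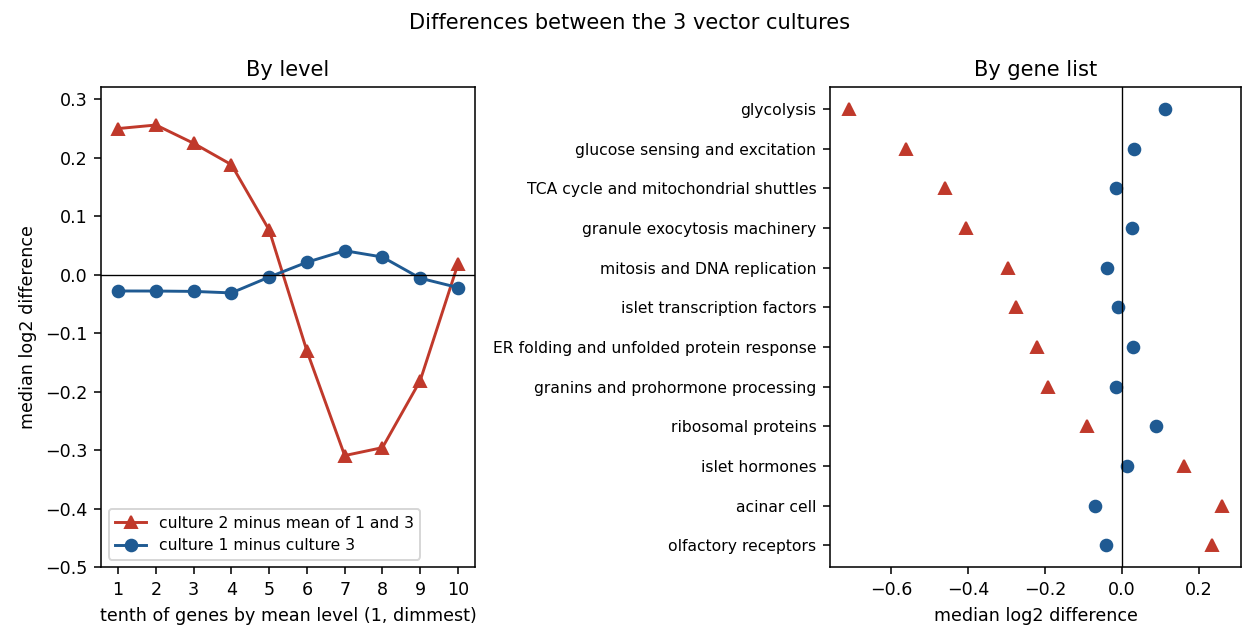
Median log2 difference of culture 2 from the mean of cultures 1 and 3 (triangles) and of culture 1 from culture 3 (circles), by decile of genes ordered by mean level (left) and for 12 gene lists (right). Culture 2 reads higher for dim genes and lower in deciles 6 to 9, and of the lists shown it is lowest for glycolysis genes, at -0.71.

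The genes that varied most between cultures were nearly all low in culture 2. Gstp1, a glutathione transferase, read 10.41, 7.50 and 10.18, and Id3, an inhibitor of helix-loop-helix factors, 9.02, 6.41 and 8.70. Ttll1, a tubulin-modifying enzyme, read 9.77, 7.37 and 9.83, the replication factor gene Gins2 11.02, 8.85 and 10.88, and the mitochondrial aspartate aminotransferase gene Got2 10.99, 8.98 and 10.94. Of the 12 with the highest SD, the small nucleolar RNA Snord49b alone was high in culture 2, at 8.45, 10.47 and 8.64. The mitochondrial transcript ATP6 (10.48, 12.30 and 10.86) and the Y RNA Rny1 (8.36, 9.84 and 8.34), chosen after their values were seen, were high there too. At the other end, Stx8, a SNARE of endosomes, read 8.34 in each culture, and Ctsl, the lysosomal protease cathepsin L, read 11.88, 11.89 and 11.89. The endocrine genes were below the median SD of all genes in part: Ins2, Gcg, Slc30a8, Cpe and Pcsk1 had SDs of 0.09, 0.12, 0.05, 0.05 and 0.06, against the median of 0.19, whereas Iapp and Chga had 0.41 and 0.43.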

How the data were processed

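RNA of 3 cultures of 1 vector clone was measured on 3 Affymetrix arrays. The values are log2 intensities of single probe sets as deposited by the authors. The submitters' processing notes list RMA and Partek. No version or build is given there (not given in the sources used here). Of 241419 probe sets, the array annotation assigned 212097 to a single symbol. These were averaged per gene and array, and the 4475 with several symbols and 24847 without one were left out. Symbols were looked up in the gene table of GRCm38.p6, where 17621 were current, 2742 matched a synonym and 53 were unmatched. Array medians ran from 7.02 to 7.19. Precision is limited by the number of arrays, since no read depth exists.

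Means, SDs and percentiles were computed in Python 3.11.15 with pandas 2.3.3, with no test. The members and the 25 gene lists, with 2 families taken by symbol, were chosen with earlier results of these data known. Listed genes without values are not analysed here. The naming rule took the marker genes, all islet hormones and Meg3, the 6 highest and 4 lowest members of each list, the 25 brightest genes, and the 12 most and 8 least variable genes over the median level; predicted, clone-derived, ribosomal and histone names were left out of the last 2 steps. Promoter windows were read from a RefSeq table. Gene averaging and the range between cultures were tested on simulated data. Alternatives were other summaries of probe sets, other scaling, other reference genes and leaving out each culture.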

Additional observations from a re-analysis of the deposited data

How the results depend on the processing

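No paired analysis was possible because only 1 group was described and no test was run. The count of 13741 genes over the olfactory cut stayed within 1.5 times under every alternative but 1: with keratin-associated and defensin genes as the reference it was 8016, and islet hormones over the cut were 4. Islet transcription factors and granule genes over the cut stayed within 1.5 times in all settings. Leaving out 1 culture gave 13280 to 13682 genes, with 7 islet hormones, 26 islet factors and 21 granule genes each time. The median SD between cultures was 0.19 as reported, 0.233 with the median probe set, 0.236 with the brightest, 0.201 with the brighter probe sets of each gene, 0.191 with genes of 3 or more probe sets, 0.229 with arrays centred and 0.193 with quantile normalization again. Leaving out 1 culture gave 0.0681 (without culture 2) to 0.221 (without culture 3). The lists of other cell types depended on the reference and on the probe set summary: with the brightest probe set, 15 of 18 acinar and 13 of 13 endothelial genes passed, and with vomeronasal receptor genes as the reference 14 and 12. Olfactory genes had a median of 1 probe set and other genes 8, so the brightest probe set raises the latter by construction. Levels of single genes depended on the probe set summary: of 289 named genes, 147 kept their level within 1 SD with the median probe set and 25 with the brightest, with median shifts of 0.20 and 1.65 (log2), and percentiles shifted by up to 15.9 and 63.0. Order among genes rests on probe response, which 3 arrays cannot separate from RNA.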
